A study of Mus musculus with 12 samples.

Results

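The genes described here are 32 genes of the endoplasmic reticulum (ER) protein folding machinery and of the unfolded protein response, measured by bulk RNA-seq in mouse bone marrow macrophages. They are the rows of the deposited count table that carry 1 of 32 symbols chosen for the pathway: 16 chaperones and folding enzymes, 6 genes of ER-associated degradation, 7 signalling genes and 3 genes of protein translocation. The symbols were chosen with earlier results of these data known, so counts set against all genes describe the list and are no independent test. All 32 were found among the 23420 gene rows, and all 32 were among the 11806 genes with enough counts to be tested. In the MSC-treated tibia, 10 of the 32 were higher than in the untreated femur and 0 were lower, against 3.51% and 3.69% of all genes tested (12 libraries, edgeR, adjusted p under 0.05). Of those 10, 9 were chaperones or folding enzymes, and the changes were small, 10.6 to 17.8% in size. With the counts summed per mouse and bone, so that the animal is the unit, 0 of the 32 were called. That fit rests on 2 mice, so its 0 calls do not show that the genes were unchanged.

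The macrophages came from the marrow nucleated cells of C57BL/6 mice whose tibias had received mesenchymal stromal cells (MSCs), the fibroblast-like support cells of marrow, while their femurs had not. Each of 2 animals, numbered 7 and 19, gave 3 libraries from the treated tibia and 3 from the untreated femur, 12 libraries in all. The treated bones were all tibias and the untreated ones all femurs, so the effect of treatment and that of the bone cannot be told apart. The sources used here do not give the age of the animals, the sort markers, the way the MSCs were given, or whether these animals carried the leukaemia that the series title names.

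Secreted and membrane proteins enter the ER through the Sec61 channel and fold there with the help of chaperones, lectins that read their sugars, and enzymes that form disulfide bonds; proteins that fail are sent back to the cytosol and degraded. When unfolded proteins accumulate, sensors in the ER membrane start the unfolded protein response: Ern1 (IRE1) splices the Xbp1 messenger RNA into the form that encodes an active factor, Eif2ak3 (PERK) slows translation and raises Atf4, and Atf6 is cut to release a transcription factor. In macrophages this machinery serves the making of lysosomal enzymes, surface receptors and secreted factors, and the response is tied to inflammatory signalling.

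Atf6 and spliced Xbp1 act through the ER stress response element (ERSE), a CCAAT box followed by any 9 bases and then CCACG. The sites found in the promoters of chaperone genes are shown here because this element is shared by many of the chaperones and was found without the use of their levels. Both strands were searched in RefSeq windows on GRCm38.p6 that run from 250 bases before to 50 bases after the annotated start, which were at hand for 27 of the 32 genes (not for Hyou1, Manf, Derl1, Atf6 and Sec61a1). Each site is written 5′ to 3′ on the strand that reads CCAAT first, with the bases fixed by the motif in capitals.
Hspa5 (chr2:34772025-34772043, −65 to −47 from the start): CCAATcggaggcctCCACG
Hsp90b1 (chr10:86705638-86705656, −212 to −194): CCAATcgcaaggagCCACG
Hsp90b1 (chr10:86705533-86705551, −107 to −89, strand opposite to the gene): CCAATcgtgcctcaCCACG
Calr (chr8:84847075-84847093, −162 to −144, opposite strand): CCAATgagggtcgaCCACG
Canx (chr11:50325800-50325818, −145 to −127): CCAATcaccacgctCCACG
Pdia6 (chr12:17266491-17266509, −98 to −80): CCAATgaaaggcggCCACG
Dnajc3 (chr14:118937827-118937845, −105 to −87): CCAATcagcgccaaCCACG
Creld2 (chr15:88819520-88819538, −126 to −108, opposite strand): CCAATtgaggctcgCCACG
Syvn1 (chr19:6046532-6046550, −44 to −26): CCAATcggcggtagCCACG

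The ERSE stood in the windows of 7 of 14 chaperone and folding enzyme genes, against 37 of all 27025 genes with a window (0.137%). Among the degradation genes it was found in 1 of 5, Syvn1, and it was found in 0 of 6 signalling and 0 of 2 translocation genes. Among the further pathway genes taken up below, the ERSE was found in 0 of 33 folding and 1 of 20 degradation genes. It was found in 0 of 41 signalling and 0 of 33 translocation genes of those lists. The letters were chosen as those of this pathway, so the shares among its genes are a description and not a test. The related element ERSE-II, which is ATTGG, any 1 base and CCACG, was found in Dnajb11 (+7 to +17) and in Herpud1 (−52 to −42), and in 12 of 27025 genes (0.0444%). The unfolded protein response element, TGACGTGG, was found in 0 of the 27 member windows and in 0.714% of all genes. The composite element read by Atf4 with its C/EBP partners, TGATGNAAN, was found in Herpud1 alone among the members and in 4.50% of all genes. The presence of these letters is a description of the reference sequence, not a measurement of binding.

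**Figure D1:**
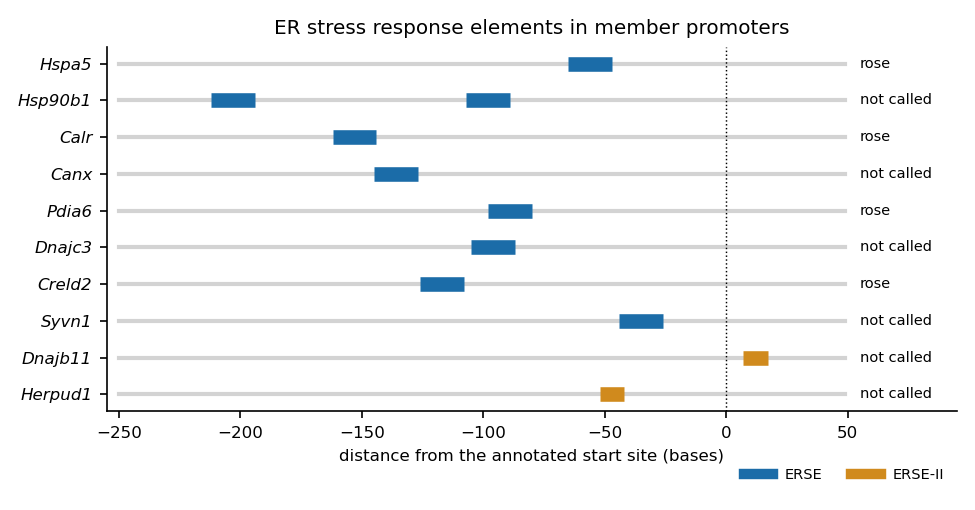
Positions of the ERSE (blue) and ERSE-II (orange) in the promoter windows of the 10 members that hold one; the horizontal axis is the distance from the annotated start site in bases, and the right margin says whether the gene was higher in tibia. All 9 ERSE sites lie before the start, between −212 and −26.

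The 250 bases before the start of the 4 ERSE-holding genes that were higher in the tibia are printed on the gene's strand, with the fixed bases of the ERSE in capitals (in Calr and Creld2 the site reads from the other strand).
Calr (GRCm38.p6, chr8:84846932-84847181, minus strand): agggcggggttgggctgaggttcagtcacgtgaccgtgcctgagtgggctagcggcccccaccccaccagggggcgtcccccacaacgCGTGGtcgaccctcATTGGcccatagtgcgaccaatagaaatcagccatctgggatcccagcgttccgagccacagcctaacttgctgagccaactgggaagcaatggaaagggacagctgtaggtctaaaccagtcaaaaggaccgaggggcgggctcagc
Hspa5 (chr2:34771840-34772089, plus strand): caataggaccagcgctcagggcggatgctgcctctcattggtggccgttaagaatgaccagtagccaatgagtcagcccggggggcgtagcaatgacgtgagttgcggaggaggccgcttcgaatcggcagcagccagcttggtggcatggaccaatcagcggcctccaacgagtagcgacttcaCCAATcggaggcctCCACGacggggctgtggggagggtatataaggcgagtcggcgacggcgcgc
Pdia6 (chr12:17266339-17266588, plus strand): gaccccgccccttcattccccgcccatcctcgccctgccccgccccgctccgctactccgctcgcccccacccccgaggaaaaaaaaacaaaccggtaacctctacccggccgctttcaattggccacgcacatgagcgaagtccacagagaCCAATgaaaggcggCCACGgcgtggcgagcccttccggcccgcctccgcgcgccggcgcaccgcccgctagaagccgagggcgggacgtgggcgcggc
Creld2 (chr15:88819396-88819645, plus strand): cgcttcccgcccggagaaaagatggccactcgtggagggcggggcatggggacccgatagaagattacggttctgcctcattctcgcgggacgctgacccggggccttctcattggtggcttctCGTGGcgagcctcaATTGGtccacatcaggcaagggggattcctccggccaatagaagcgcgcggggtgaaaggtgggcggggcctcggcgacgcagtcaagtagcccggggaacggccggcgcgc

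Total counts per library ran from 9773455 to 14869150, and 13524 to 13902 genes had a count. Levels are given as CPM, a gene's counts relative to the library size after TMM scaling, which corrects for differences in RNA composition. All 10 macrophage markers were detected, at a summed level of 18435 to 22950 CPM per library. The 10 monocyte markers summed to 21897 to 24976 CPM and 9 neutrophil markers to 17386 to 31445 CPM. In mouse 19 the neutrophil sums (25834 to 31445 CPM) were above the macrophage sums (18435 to 19397 CPM). The purity of the sort can therefore not be read from the macrophage markers alone. Fewer cells of a type and less RNA per cell cannot be told apart in such bulk data, and the labels do not say whether the 3 libraries of a bone are separate sorts, so the p-values measure the spread between libraries.

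Among the chaperones and folding enzymes, 9 of 16 rose in the MSC-treated tibia and 0 fell, with a median log2 fold change of 0.17 and positive estimates in all 16. Over all genes tested, 3.51% were higher and 3.69% lower, with a median of −0.0021 (edgeR's quasi-likelihood test with the mouse as a term, Benjamini-Hochberg adjusted p under 0.05). The members were chosen with earlier results of these data known, so this comparison is a description. The summed level of the 16 genes in mouse 7 was 5519 ± 148 CPM in femur and 6227 ± 40.8 CPM in tibia (mean ± SD, n = 3 libraries each). In mouse 19 it was 5671 ± 75.8 CPM in femur and 6119 ± 55.04 CPM in tibia (n = 3 each). In each animal the 3 tibia sums were all above the 3 femur sums. When the counts were summed per mouse and bone, which makes the animal the unit, edgeR called 0 of the 16 (smallest adjusted p 0.117, for Calr), although 11 were higher at an unadjusted p under 0.05, as were 5.11% of all genes. Over all genes 48 (0.407%) were then called higher and 17 (0.144%) lower, and in the fit on libraries without the mouse as a term 2 of the 16, Calr and Sdf2l1, were called.

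**Figure D2:**
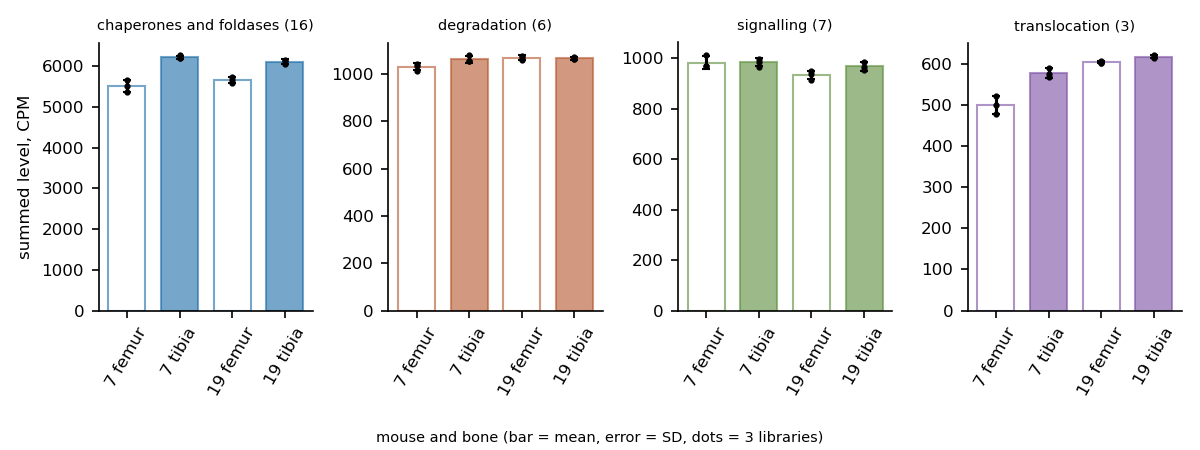
Summed level in CPM of the members of each role (one panel per role, number of genes in brackets) by mouse and bone; bars are means of 3 libraries, error bars SD and dots single libraries. The tibia sums of the chaperones and of the translocation genes lie above the femur sums in both mice; those of degradation do so in mouse 7 alone and those of signalling in mouse 19 alone.

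Hspa5, which encodes BiP, the main Hsp70 chaperone of the ER and the protein that holds the sensors inactive, rose. In mouse 7 its level was 645, 577 and 626 CPM in the femur libraries and 719, 696 and 730.4 CPM in the tibia libraries. In mouse 19 it was 706, 681 and 659 CPM in femur and 725, 788 and 734 CPM in tibia. Within each mouse the tibia libraries were all above the femur libraries, although the lowest tibia library of mouse 7 was below the highest femur library of mouse 19. The log2 fold change was 0.17 ± 0.03 (SE; adjusted p = 0.0014, edgeR), an increase of 12.9%.

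The calreticulin branch of folding, in which the soluble lectin calreticulin (Calr) and the membrane lectin calnexin (Canx) hold glycoproteins for the disulfide isomerase Pdia3, moved in part. Calr ranged from 673 to 793 CPM in femur (median 717) and from 779 to 886 CPM in tibia (median 847), a log2 fold change of 0.22 ± 0.03 (adjusted p = 1.5e-04). Pdia3 ranged from 702 to 801 CPM in femur (median 752) and from 807 to 880.1 CPM in tibia (median 841), a log2 fold change of 0.16 ± 0.03 (adjusted p = 6.1e-04). The ranges of Calr overlapped across the mice but not within them, and those of Pdia3 did not overlap at all. Canx, in contrast, ranged from 493 to 518 CPM in femur (median 503) and from 462 to 550.3 CPM in tibia (median 517), with a log2 fold change of 0.02 ± 0.03 (adjusted p = 0.738). Its tibia libraries were above the femur in mouse 7 and reached lower in mouse 19.

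The other disulfide isomerases among the members, P4hb, Pdia6 and Pdia4, also rose. P4hb, the founding protein disulfide isomerase, ranged from 742 to 935 CPM in femur (median 853) and from 911 to 1019.7 CPM in tibia (median 978), with a log2 fold change of 0.21 ± 0.03 (adjusted p = 9.5e-05), the smallest adjusted p among the members. Pdia6, a further isomerase of the family, ranged from 254 to 283 CPM in femur (median 266) and from 272 to 308 CPM in tibia (median 299), with a log2 fold change of 0.14 ± 0.03 (adjusted p = 0.0048). In both genes the bones did not overlap within either mouse. Pdia4 ranged from 100.4 to 115 CPM in femur (median 105) and from 113 to 130.2 CPM in tibia (median 118), with a log2 fold change of 0.17 ± 0.04 (adjusted p = 0.0127); 4 of its 6 tibia libraries exceeded all femur libraries of their mouse. Ero1l, the oxidase that recharges these enzymes, had a log2 fold change of 0.15 ± 0.05 and did not pass (adjusted p = 0.0608). It passed when femur library 2 of mouse 7 (adjusted p = 0.0220), tibia library 2 of that mouse (0.0300) or, of mouse 19, femur library 3 (0.0442) was left out, and with DESeq2 (11 members higher).

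The small soluble ER proteins Manf, Sdf2l1 and Creld2 also rose. Manf, a secreted factor kept in the ER with BiP, ranged from 72.5 to 95.4 CPM in femur (median 86.1) and from 92.8 to 112 CPM in tibia (median 95.9), a log2 fold change of 0.24 ± 0.05 (adjusted p = 0.0024). Sdf2l1, a partner of the BiP cofactor Dnajb11, ranged from 83.0 to 91.5 CPM in femur (median 87.6) and from 95.5 to 109.6 CPM in tibia (median 101), a log2 fold change of 0.22 ± 0.04 (adjusted p = 0.0026). All 6 tibia libraries of Sdf2l1 were above all 6 femur libraries, whereas 3 of the 6 for Manf were. Creld2, a cysteine-rich ER protein, ranged from 32.1 to 41.8 CPM in femur (median 38.9) and from 39.2 to 47.8 CPM in tibia (median 42.8), a log2 fold change of 0.20 ± 0.06 (adjusted p = 0.0468). The call for Creld2 was lost without any 1 of 8 libraries (adjusted p 0.0554 to 0.139), all but femur library 3 and tibia library 1 of mouse 7 and femur library 2 and tibia library 3 of mouse 19; the other 9 called members kept their call without any 1 library.

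The remaining chaperones did not pass over both mice. Hsp90b1, the ER Hsp90 (GRP94), ranged from 862 to 952 CPM in femur (median 905) and from 883 to 989 CPM in tibia (median 936), with a log2 fold change of 0.04 ± 0.03 (adjusted p = 0.350). Its promoter window holds 2 ERSE sites, and its bones overlapped across the mice. Within mouse 7 the tibia libraries (970.3 to 989 CPM) were all above the femur libraries (920 to 952 CPM), and in mouse 19 2 of 3 were. The J-domain cofactors of BiP had log2 fold changes of 0.18 ± 0.06 for Dnajb9 (adjusted p = 0.0986), 0.07 ± 0.04 for Dnajb11 (adjusted p = 0.284) and 0.08 ± 0.04 for Dnajc3 (adjusted p = 0.240). Hyou1, the exchange factor that resets BiP, stood at 0.13 ± 0.04 (adjusted p = 0.0855) and passed without tibia library 2 of mouse 19 (0.0318). Chaperones with an ERSE in the window were higher in 4 of 7 cases with a median log2 fold change of 0.14, and those with a window but no ERSE in 4 of 7 with a median of 0.17. This split is by the exact letters. Of the genes without an ERSE, Dnajb11 holds an ERSE-II, and Pdia4, P4hb, Dnajb9 and Sdf2l1 hold CCAAT before CCACG at another spacing.

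**Figure D3:**
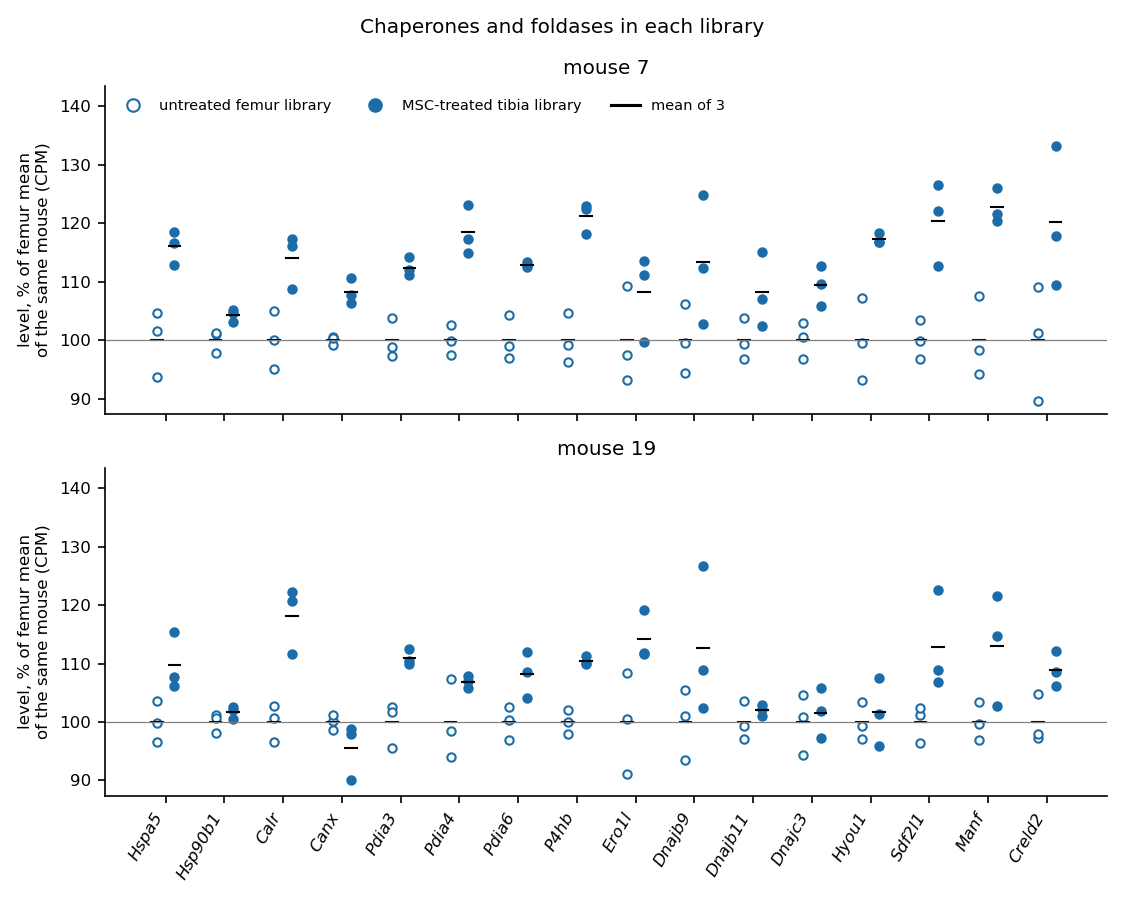
Level of each chaperone and folding enzyme in each library as a percentage of the mean of the 3 femur libraries of the same mouse (CPM; open circles femur, filled circles tibia, short lines means), with one panel per mouse. In 7 members over all roles (Hspa5, Calr, Pdia3, Pdia6, P4hb, Sdf2l1 and Creld2) the tibia libraries all lie above the femur libraries within each mouse.

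Separation of the libraries was counted for all genes in the same way. The 6 tibia libraries exceeded all femur libraries from the same mouse in 7 of the 32 members, against 288 of 11806 genes (2.44%). All 6 were below in 0 members, against 326 genes (2.76%). The other members that were called, Pdia4, Manf and Ssr1, had all 6 tibia libraries above the femur mean of their mouse, as did Hsp90b1, Dnajb9 and Dnajb11 among those not called; 8.26% of all genes did.

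Compared per kilobase of merged exons (GENCODE M21 lengths, which may differ from the annotation the authors used), levels in the femur were led by P4hb at 295 ± 29.0 CPM per kb (mean ± SD, n = 6 libraries). Calr followed at 252 ± 14.7, Pdia3 at 239.8 ± 10.1 and Hsp90b1 at 226 ± 9.21 CPM per kb, neighbours that lie within the sum of their SDs. Hspa5 came next at 154 ± 10.6 CPM per kb, below Hsp90b1 by more than that sum. Xbp1 was the highest of the signalling genes with a length at 102 ± 8.91 CPM per kb, while the sensors Ern1 (14.1 ± 2.43) and Eif2ak3 (13.6 ± 0.581) stood near the bottom. The first 7 genes in this order, which include Canx and Xbp1, had the same order in the tibia.

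None of the 6 degradation genes passed the test, at a median log2 fold change of 0.01. They were Syvn1 (0.08 ± 0.04), the ubiquitin ligase of the pathway, and its partner Sel1l (0.05 ± 0.04), with Herpud1 (0.01 ± 0.04), Edem1 (0.01 ± 0.03), Derl1 (0.01 ± 0.04) and Derl2 (−0.01 ± 0.05). Their adjusted p-values ran from 0.301 to 0.967 (edgeR), and 0 had an unadjusted p under 0.05. Their summed level was 1031 ± 14.4 CPM in femur and 1064 ± 14.4 CPM in tibia of mouse 7, and 1070.1 ± 9.40 and 1067 ± 6.29 CPM in mouse 19 (n = 3 each).

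None of the 7 signalling genes passed either, at a median of 0.06, and their estimates had both signs. Ern1, the IRE1 sensor, ranged from 90.8 to 137 CPM in femur (median 115) and from 87.1 to 119 CPM in tibia (median 103), with a log2 fold change of −0.14 ± 0.05 (adjusted p = 0.0547, edgeR). The tibia libraries of mouse 7 (109 to 119 CPM) were all below its femur libraries (130.2 to 137 CPM), whereas those of mouse 19 overlapped. The estimate passed when 1 of 3 libraries of mouse 19 was left out (femur 2, 0.0204; tibia 1, 0.0321; tibia 3, 0.0366), with DESeq2 and with no filter on low counts. Xbp1, its substrate, ranged from 299 to 365 CPM in femur (median 332) and from 322 to 369.8 CPM in tibia (median 350.4), with a log2 fold change of 0.07 ± 0.03 (adjusted p = 0.252). In mouse 19 the tibia libraries (322 to 350.1 CPM) were all above the femur libraries (299 to 313 CPM), at a log2 fold change of 0.13 ± 0.04 that did not pass (adjusted p = 0.0576), while in mouse 7 it was 0.00 ± 0.04. Gene counts do not separate the spliced from the unspliced Xbp1 messenger RNA, so the activity of Ern1 was not measured.

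Eif2ak3, the PERK sensor, ranged from 78.3 to 86.4 CPM in femur (median 82.0) and from 80.3 to 91.6 CPM in tibia (median 84.4), with a log2 fold change of 0.06 ± 0.04 (adjusted p = 0.449). Atf4, the factor whose translation it raises, ranged from 158 to 213 CPM in femur (median 178) and from 175 to 228 CPM in tibia (median 198), with a log2 fold change of 0.12 ± 0.05 (adjusted p = 0.182). The groups of both genes overlapped. Ddit3 (CHOP), the death-associated target of Atf4, was the least abundant member, at 6.95 to 9.28 CPM in femur (median 8.33; 621 counts in 6 libraries) and 5.62 to 8.54 CPM in tibia (median 6.86; 561 counts). Its log2 fold change was −0.22 ± 0.13 (adjusted p = 0.343).

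Ppp1r15a (GADD34), which restores translation after the PERK signal, varied more between libraries of 1 bone than between bones. It ranged from 30.2 to 77.9 CPM in femur (median 48.0) and from 40.0 to 78.3 CPM in tibia (median 50.7), with a log2 fold change of 0.12 ± 0.15 (adjusted p = 0.718). Atf6, the sensor that is itself a transcription factor, ranged from 176 to 198 CPM in femur (median 185) and from 169 to 186 CPM in tibia (median 181), with a log2 fold change of −0.05 ± 0.04 (adjusted p = 0.413). A p that misses the threshold leaves an interval: at 95% it ran from −8.3 to 1.1% for Atf6 and from −27.8 to 2.1% for Ddit3.

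Of the 3 translocation genes, Ssr1, a subunit of the translocon-associated protein complex, rose. It ranged from 203 to 268 CPM in femur (median 240.1) and from 251 to 276 CPM in tibia (median 268), with a log2 fold change of 0.16 ± 0.04 (adjusted p = 0.0142). The call was lost on sums per mouse and bone (adjusted p = 0.420) and without the mouse as a term (0.373). The gain lay mostly in mouse 7, where the femur libraries (203 to 222 CPM) were below all others. The channel subunits Sec61b (0.09 ± 0.04, adjusted p = 0.241) and Sec61a1 (0.09 ± 0.04, adjusted p = 0.164) did not pass.

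**Figure D4:**
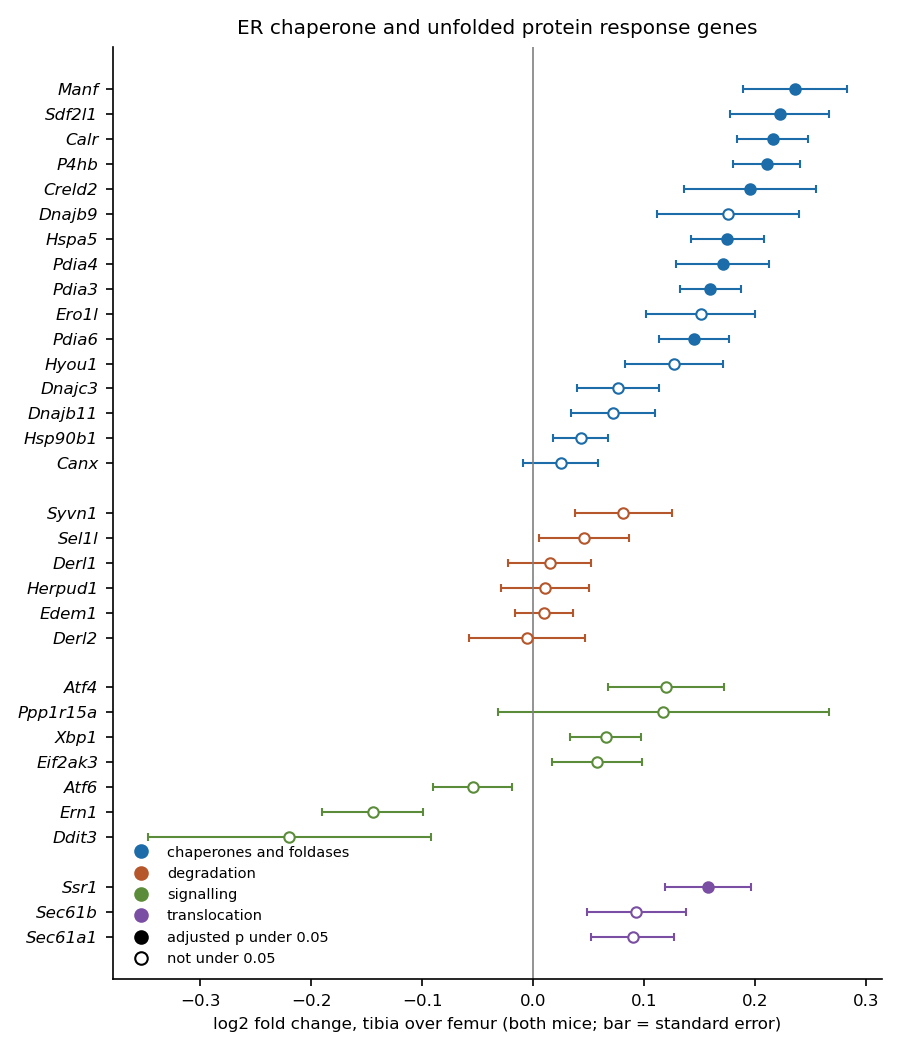
Log2 fold change, tibia over femur over both mice, of all 32 members by role (points; bars are standard errors; filled points have an adjusted p under 0.05). All 16 chaperones and folding enzymes lie right of 0 and 9 are filled; Ssr1 is the only other filled point.

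The 2 animals differed in how many members passed. In mouse 7, 13 of 32 were higher and 1 was lower (all genes 4.37% higher and 5.36% lower). In mouse 19, 3 were higher and 0 lower (all genes 2.96% and 2.21%). Calr, Pdia3 and P4hb were called in both, with log2 fold changes in mouse 7 and mouse 19 of 0.19 ± 0.04 and 0.24 ± 0.04 for Calr, 0.17 ± 0.04 and 0.15 ± 0.04 for Pdia3, and 0.28 ± 0.04 and 0.14 ± 0.04 for P4hb. In mouse 19 the call for Pdia3 was lost without its femur library 1 (adjusted p = 0.118), and that for P4hb when its femur library 1 (0.0555), femur library 3 (0.0762) or tibia library 1 (0.0633) was left out. The count of members higher in mouse 19 was 1 without its femur library 1 and 8 without its tibia library 3. Over all fits without 1 library, 226 to 365 of all genes were higher in mouse 19.

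Called in mouse 7 and not in mouse 19 were Hspa5, Canx, Pdia4, Pdia6, Hyou1, Sdf2l1, Manf, Creld2, Ssr1 and Sec61a1, and Ern1 fell in mouse 7 (−0.23 ± 0.06, adjusted p = 0.0071). Of these, Canx, Creld2, Hyou1 and Sec61a1 lost the call without 1 of several libraries, Hyou1 only without femur library 1 of mouse 7 (0.0535), Sec61a1 without femur 1, femur 2 or tibia 3 of that mouse (0.0630 to 0.126) and Creld2 without femur 1, femur 2, tibia 2 or tibia 3 of that mouse (0.0636 to 0.221). Canx in mouse 7 lost it without any 1 of 9 libraries (0.0533 to 0.150), all but femur 1 and tibia 2 and 3 of mouse 19. The median log2 fold change of the 16 chaperones was 0.18 in mouse 7 and 0.13 in mouse 19, and estimates were positive in 16 and in 15 of them. A test of the difference between the animals was passed by 2 members, both in the lower direction (mouse 19 minus mouse 7), against 1.85% of all genes lower, 2.89% higher and 4.74% in either direction. Hspa5 did not pass it (difference of mouse 19 minus mouse 7 −0.08 ± 0.06, adjusted p = 0.583).

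In both members that passed, the estimate was lower in mouse 19 than in mouse 7; for Canx it was −0.07 ± 0.04 in mouse 19 (adjusted p = 0.392). Canx stood at 493, 500.4 and 499 CPM in the femur and 550.3, 529 and 536 CPM in the tibia of mouse 7, and at 505, 513 and 518 CPM in the femur and 502, 462 and 506 CPM in the tibia of mouse 19. The tibia was thus above every femur library in 1 animal and not in the other, and the difference was −0.18 ± 0.05 (adjusted p = 0.0424). Ssr1 stood at 217, 203 and 222 CPM in the femur and 269, 254 and 251 CPM in the tibia of mouse 7, and at 259, 268 and 262 CPM in the femur and 272, 276 and 267 CPM in the tibia of mouse 19. The femur of mouse 7 was the low group, and the difference was −0.23 ± 0.06 (adjusted p = 0.0221). The call for Canx was lost without any 1 of 9 libraries (0.0542 to 0.114), all but femur library 1 and tibia libraries 1 and 3 of mouse 19. That for Ssr1 was lost when femur 2 (0.0826) or tibia 1 (0.0679) of mouse 7 was left out, and likewise femur 2 (0.0744) or tibia 1 (0.0526) of mouse 19.

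**Figure D5:**
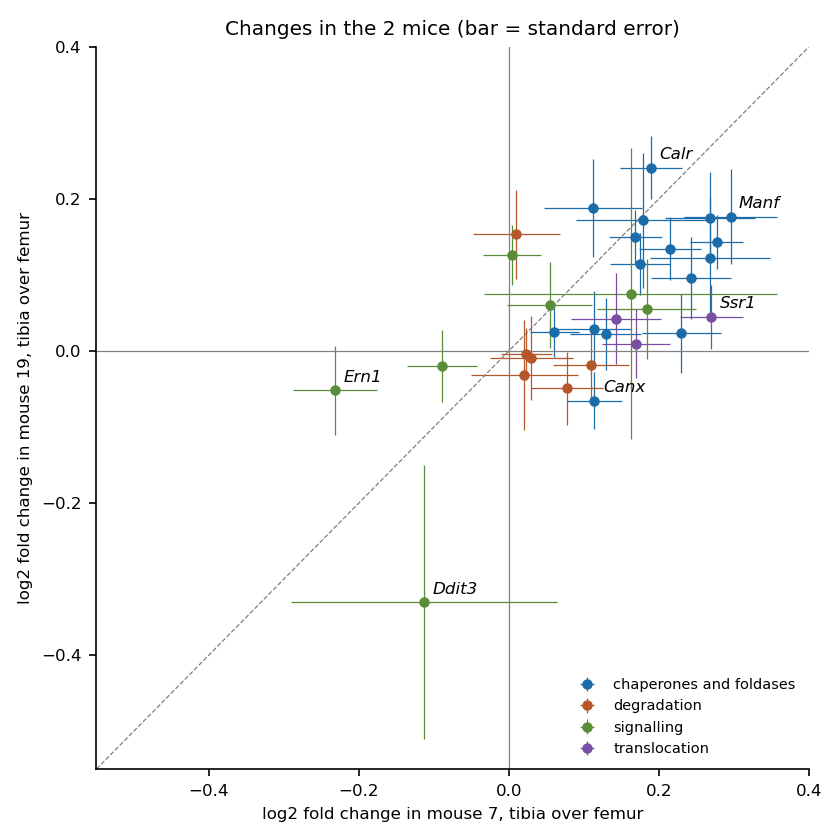
Log2 fold change, tibia over femur, in mouse 7 (horizontal) against mouse 19 (vertical) for all 32 members, coloured by role; bars are standard errors and the dashed line marks equal change. The chaperones lie above 0 in both mice except Canx, and Ssr1 and Canx lie below the dashed line.

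Other genes of the pathway were counted from 4 lists, to be read against the 3.51% of all genes that were higher and the 3.69% that were lower; the counts in the first pair of lists are near those shares. Of 40 further folding enzymes and cofactors tested, 2 were higher and 0 lower (median log2 fold change 0.05): Txndc11, a thioredoxin-domain protein (0.20 ± 0.05, adjusted p = 0.0266), and Mcfd2, a cargo receptor subunit (0.17 ± 0.05, adjusted p = 0.0362). Of 31 further degradation genes, 2 were higher and 0 lower (median 0.04): Get4 (0.21 ± 0.06, adjusted p = 0.0368) and Vcp, the ATPase that pulls proteins from the membrane (0.11 ± 0.03, adjusted p = 0.0482). Each of these calls was lost without 1 of several libraries, 4 of 12 for Txndc11, 9 for Mcfd2, 7 for Get4 and 10 for Vcp, with adjusted p-values of 0.0506 to 0.129.

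Of 41 further genes of targeting, translocation and glycosylation, 6 were higher and 0 lower (median 0.07). Ssr2, a partner of Ssr1 in the same complex, had a log2 fold change of 0.20 ± 0.05 (adjusted p = 0.0096), and Srp9, a protein of the signal recognition particle, 0.20 ± 0.05 (adjusted p = 0.0132). Ddost, a subunit of the enzyme that attaches N-linked sugars, stood at 0.15 ± 0.04 (adjusted p = 0.0119). These 3 kept their call without any 1 library, whereas Spcs2 of the signal peptidase (0.14 ± 0.04, adjusted p = 0.0418) lost it without any 1 of 9 libraries (0.0521 to 0.117).

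Of 46 further signalling and stress target genes, 5 were higher and 1 lower (median 0.01). Slc7a11, the cystine transporter and an Atf4 target, ranged from 2.22 to 3.22 CPM in femur (median 2.85) and from 2.70 to 7.01 CPM in tibia (median 4.31), with a log2 fold change of 0.68 ± 0.19 (adjusted p = 0.0323) that lost its call without any 1 of 7 libraries (0.0547 to 0.0893). Its partner chain Slc3a2, named after its values were seen, ranged from 51.0 to 55.7 CPM in femur (median 54.4) and from 64.3 to 78.4 CPM in tibia (median 65.5), with no overlap and a log2 fold change of 0.32 ± 0.05 (adjusted p = 1.7e-04). Phgdh, which starts serine synthesis, had a log2 fold change of 0.44 ± 0.11 (adjusted p = 0.0152), with a difference between the mice (mouse 19 minus mouse 7) of −0.63 ± 0.18 (adjusted p = 0.0352). Cebpg, an Atf4 partner, had a log2 fold change of −0.20 ± 0.04 (adjusted p = 0.0025), and Aars, the alanine tRNA ligase, stood at 0.14 ± 0.04 (adjusted p = 0.0462), lost without any 1 of 9 libraries (0.0587 to 0.122). The composite Atf4 element was found in 9 of 41 windows of this list (22.0%), against 4.50% of all genes. The holders were Slc7a11, Aars, Atf3, Trib3, Chac1, Asns, Nupr1, Vldlr and Yars. Slc3a2, Phgdh and Cebpg, called as well, were not among them. The list was picked for stress targets, so this share is a description. On counts summed per mouse and bone, 0 genes of these 4 lists were called (edgeR; the smallest adjusted p was 0.0545, for Slc3a2). Unadjusted p-values under 0.05 numbered 3, 1, 8 and 8 in the folding, degradation, translocation and signalling lists, against 10.3% of all genes.

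Markers of other marrow cells moved in the same libraries. Of 10 markers of granulocyte precursors, which include the granule proteases and myeloperoxidase, 7 were higher and 0 lower, with a median log2 fold change of 0.45 (0.53 in mouse 7 and 0.29 in mouse 19). Their summed level ran from 1354 to 1426 CPM in femur and from 1664 to 1896 CPM in tibia of mouse 7, and from 1835 to 2166 and from 2191 to 2554 CPM in mouse 19. None of the 10 was at 0, and their part in the chaperone result was not tested. Of 9 markers of plasma cells, cells rich in ER, 0 were higher and 2 lower, with a summed level of 237 to 327 CPM in femur and 265 to 299 CPM in tibia; Txndc5 and Derl3 stand on this list and on those of the pathway. Txndc5 made up most of that sum (202 ± 26.5 CPM in femur and 212 ± 4.74 CPM in tibia, n = 6). The list's median log2 fold change was −0.32, and Igj, the immunoglobulin joining chain, fell from 21.5 ± 10.3 to 12.96 ± 5.88 CPM (log2 fold change −0.71 ± 0.19, adjusted p = 0.0251). Among macrophage markers 2 of 10 were higher and 2 lower, and among monocyte markers 0 were higher and 4 of 10 lower. Some of these moved in opposite directions in the 2 animals: Csf1r, the receptor for the macrophage growth factor, had log2 fold changes of −0.14 ± 0.03 in mouse 7 and 0.21 ± 0.03 in mouse 19, and their difference passed the test (adjusted p = 2.2e-05). The monocyte marker Ace stood at −0.54 ± 0.06 and 0.42 ± 0.07 (adjusted p of the difference 8.0e-08), and Vcan at −0.19 ± 0.04 and 0.23 ± 0.04 (4.1e-05). These 3 were chosen after their values were seen. The median of the whole monocyte list was −0.13 in mouse 7 and −0.0092 in mouse 19. Its summed level ran from 23636.1 to 24472.6 CPM in femur and from 21897.3 to 22676.5 CPM in tibia of mouse 7. In mouse 19 the monocyte sums were 23837.8 to 24975.7 and 21927.5 to 22506.8 CPM. The median of the macrophage list was −0.09 in mouse 7 and 0.16 in mouse 19. Its summed level ran from 22235.9 to 22949.6 CPM in femur and from 19893.7 to 20672 CPM in tibia of mouse 7. In mouse 19 the macrophage sums were 18968.4 to 19396.8 and 18434.6 to 19140.1 CPM, so they did not rise with the median. The part of these shifts in the differences between the mice was not tested. Neutrophil markers had 3 of 9 higher and 2 lower. Over both mice, lower and never higher were 3 of 10 dendritic cell markers, 2 of 6 erythroid markers, 2 of 10 of eosinophils, basophils and mast cells and 1 of 5 of stroma and endothelium. The 6 B cell and 5 T and NK cell markers tested held 0 calls. The dendritic sum was 823 to 887 CPM in femur and 579 to 624 CPM in tibia of mouse 7. In mouse 19 it was 475 to 518 and 599 to 649 CPM, although the list's median was −0.32 in mouse 7 and −0.31 in mouse 19. Beside the macrophage list, medians differed in sign between mouse 7 and mouse 19 for neutrophils (−0.02 and 0.20) and B cells (−0.37 and 0.07). They did so as well for eosinophils, basophils and mast cells (0.15 and −0.30) and for stroma and endothelium (−0.33 and 0.15). The globins Hba-a1, Hba-a2 and Hbb-b1 were at 0 in all 12 libraries. Reads of near-identical genes cannot be assigned further, so these counts of 0 do not show that globin RNA was absent. The 9 erythroid markers with a row summed to 33.2 to 77.3 CPM in femur and 24.2 to 54.6 CPM in tibia.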

How the data were processed

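Total RNA of sorted macrophages was made into mRNA-seq libraries. The deposited table holds raw read counts per gene. Per the submitters' processing notes, the build was mm10 and the tools were bcl2fastq, HISAT2, featureCounts, Subread and DESeq2; the sources used here give no versions, strand handling or annotation, so reads of overlapping or near-identical genes cannot be assigned further. Among counts of 1 to 10, 67.3 to 71.3% were even, so most fragments appear as 2 counts; a count of 0 allows up to 6 counts (3 fragments), 0.404 to 0.617 CPM, for counting error only. The 3 libraries of a bone differed beyond sampling noise, with a chi-square per gene of 1.39 to 3.25 on halved counts, and were kept apart.

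The analysis used edgeR 4.0.16 in R 4.3.3: filterByExpr with a minimum count of 10, TMM scaling and the quasi-likelihood test, two-sided, with the mouse as a term. Contrasts within mice and between them used 1 mean per mouse and bone. Calls were made at an adjusted p under 0.05 (Benjamini-Hochberg, over all 11806 genes); the biological coefficient of variation was 6.26%. The standard error is the absolute log2 fold change over the square root of F. CPM values and their SDs describe the libraries. All 12 columns were matched by title and 0 were left unmapped; 27 rows whose names had become dates are not named here.

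The members and lists were chosen with earlier results of these data known. Values by library are given for called members, for members that differ between the mice and for Hspa5, Hsp90b1, Xbp1, Atf4, Atf6, Ern1, Eif2ak3, Ddit3 and Ppp1r15a; of each other list the 2 highest and 2 lowest changes among called genes are named. Promoters are from RefSeq (GRCm38.p6), with Ero1l matched by gene ID; those of called members with an element are printed. A comparison of protein C termini was planned, and no protein table was used here. Alternatives were other scalings, filters, DESeq2 1.42.0, sums per mouse and bone, other blocks, halved counts and leaving out each library.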

Additional observations from a re-analysis of the deposited data

Results flagged for a closer look

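The difference between treated tibia and untreated femur in Canx was not the same in the 2 animals, by −0.18 on the log2 scale (mouse 19 minus mouse 7), and the difference itself passed edgeR's test (adjusted p = 0.0424). The same was true of Ssr1, at −0.23 (adjusted p = 0.0221). No library stood apart from the other 5 of its bone by the gap test used, over 64 gene and bone groups.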

How the results depend on the processing

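Over both mice, the 10 members higher, 9 of them chaperones, were the same genes with RLE or upper-quartile scaling, with a filter of 5 CPM in 3 libraries and with halved counts. Without composition scaling 11 were higher (all genes 469 higher, 350 lower), and with DESeq2 11 were higher and 1 lower (all genes 478 and 546). Without a filter 13 were higher and 1 lower (all genes 564 and 556, of 16286 tested). Ero1l was gained in all of these, Ern1 was the lower one, and Hyou1 and Atf4 passed only without the filter among these. On sums per mouse and bone 0 members and 0 chaperones were higher (all genes 48 higher, 17 lower), and without the mouse term 2 and 2 (all genes 50 and 24). The library numbers showed no sign of pairing the bones. Deviations of same-numbered libraries correlated at −0.0474 to 0.000594 and those of differently numbered ones at −0.0562 to 0.0594. These values cannot show that same-numbered libraries were handled apart. With the replicate block 8 members stayed higher, Creld2 and Ssr1 being lost (all genes 239 higher, 256 lower). In mouse 19 the 3 members higher became 5 with DESeq2 and with the 5 CPM filter and 6 (5 chaperones) without a filter.

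Leaving out 1 library gave 9 to 10 members higher and 0 to 1 lower over both mice, with 8 to 9 chaperones higher (all genes 284 to 498 higher, 279 to 490 lower). It gave 9 to 15 members (8 to 12 chaperones) higher in mouse 7 (all genes 314 to 602 higher, 381 to 621 lower) and 1 to 8 members (1 to 7 chaperones) in mouse 19 (all genes 226 to 365 higher, 116 to 369 lower). For the difference between the mice it gave 0 to 3 members and 0 to 2 chaperones lower (all genes 147 to 234 lower). Estimates near 0 changed sign: Derl2 to 0.0028 without composition scaling and to between −0.051 and 0.022 without 1 library, Derl1 to between −0.0084 and 0.035, and Herpud1 to between −0.0080 and 0.030. Of 1367 values of single genes under an alternative, 1191 kept direction and call, 151 lost the call, 14 gained it and 11 changed sign. The cause of these changes was not tested. With CCAAT before CCACG at any spacing 15 members and 11 chaperones held a match (4.80% of all genes), and before the start alone 1 member and 0 chaperones held an ERSE-II. Counts were fewest for Ddit3 among the members (621 in femur, 561 in tibia), and fewer still for Slc7a11 (211 and 370).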
